A study of Mus musculus with 6 samples.

Results

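The 40 genes described here act in the passage through G2 and mitosis: cyclins and the kinase CDK1, the mitotic kinases, the spindle checkpoint, kinetochore and centromere proteins, spindle motors, and the machinery of cytokinesis. They were chosen by name as known mitosis and G2/M genes, with earlier results of these data known. All 40 were found among the 24516 genes of the RNA count table. All 40 also passed the filter on low counts, which kept 13427 genes. Each of 6 libraries was made from poly(A) RNA of a mouse embryonic fibroblast line in which doxycycline (1 ug/mL) induces Mef2c, Gata4 and Tbx5 (MGT), factors that push fibroblasts towards a cardiomyocyte-like state. Its name also lists an eGFP reporter of Myh6, which encodes a cardiac myosin heavy chain. There were 3 groups of 2 libraries: siH1f0, transfected with an siRNA against H1f0 (linker histone H1.0); siJunb, with an siRNA against Junb (which encodes an AP-1 transcription factor subunit); and siControl, with a control siRNA. All 6 cultures, siControl included, were of this single line, were transfected on the day before doxycycline was added, and received doxycycline, so that no library shows the fibroblasts without MGT. The sample labels place the harvest at day 1 of MGT expression, whereas the text on the series gives day 3 and says that GFP-positive cells were sorted. It was not settled which of these applies.

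Entry into mitosis is driven by CDK1 bound to cyclin B or cyclin A, and exit from it by the anaphase-promoting complex (APC/C), a ubiquitin ligase that sends cyclins and other substrates for destruction. The genes of this program are transcribed in a wave that peaks in G2 and M. The DREAM complex holds them silent in resting cells, and B-MYB with the MuvB core and then FOXM1 activate them in cycling cells. Many of their promoters hold a CHR element, bound by MuvB, a few turns of the helix downstream of CCAAT boxes bound by NF-Y. Cultured embryonic fibroblasts divide, whereas adult cardiomyocytes have largely left the cell cycle. JUNB has been described in mouse fibroblasts as an activator of Ccna2.

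Of the 40 genes, 33 were matched by symbol in a RefSeq table of promoters (GRCm38.p6), giving 36 windows, since a few genes have more than 1 start. Aurkb, Ccna2, Tpx2, Incenp, Foxm1, Kif20a and Cdc25c were not matched. The 250 bases before each start were searched on both strands for the CHR hexamers TTTGAA or TTCGAA, for CCAAT, and for the AP-1 heptamers TGACTCA or TGAGTCA. A CHR hexamer was present in 14 of 36 windows (38.9%), against 17.1% of the 32851 windows of all genes. CCAAT was present in 29 windows (80.6%), against 33.8% of all windows, and both together in 13 (36.1%), against 6.02%. An AP-1 heptamer was in 0 of the 36 windows and in 4.46% of all windows. Over the genes called higher in siH1f0 than in siJunb, CHR was in 10 of 18 windows (55.6%) and CCAAT in 16 (88.9%), and over those not called in that comparison in 4 of 16 (25.0%) and 11 (68.8%). These shares describe the letters in the windows, with no test, and no binding was measured. The 4 promoters below are shown because their genes were lower in siJunb than in siControl and hold both motifs. Each run is given 5′ to 3′ on the gene's own strand, from 5 bases before its first motif to the base before the start, and capitals mark CHR hexamers and CCAAT on either strand. They are Bub3 at chr7:131560291-131560369 (plus strand), Ube2c at chr2:164769696-164769928 (plus), Ccnb2 at chr9:70421555-70421726 (minus) and Top2a at chr11:99024190-99024421 (minus). The starts are those of RefSeq. The GENCODE starts of Bub3 and Ube2c, in the gene coordinates given below, lie farther upstream. By them the whole Bub3 run lies inside the gene, as does the end of the Ube2c run with its CHR hexamer.
Bub3: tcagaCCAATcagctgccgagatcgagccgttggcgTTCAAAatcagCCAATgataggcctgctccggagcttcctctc
Ube2c: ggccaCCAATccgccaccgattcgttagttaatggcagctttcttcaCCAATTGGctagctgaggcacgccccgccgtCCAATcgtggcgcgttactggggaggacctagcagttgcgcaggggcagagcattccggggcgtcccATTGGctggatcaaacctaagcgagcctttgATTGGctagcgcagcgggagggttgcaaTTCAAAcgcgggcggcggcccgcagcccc
Ccnb2: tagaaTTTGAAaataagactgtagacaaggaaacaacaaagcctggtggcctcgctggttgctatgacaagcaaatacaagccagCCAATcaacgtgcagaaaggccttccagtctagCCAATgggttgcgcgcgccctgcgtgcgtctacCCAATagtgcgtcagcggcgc
Top2a: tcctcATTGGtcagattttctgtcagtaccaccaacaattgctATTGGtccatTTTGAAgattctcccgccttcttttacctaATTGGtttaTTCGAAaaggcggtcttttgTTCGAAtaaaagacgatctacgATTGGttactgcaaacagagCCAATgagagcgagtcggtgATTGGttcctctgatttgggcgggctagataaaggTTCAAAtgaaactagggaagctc
Top2a held the most copies of the 4, with 4 CHR hexamers and 6 CCAAT boxes, while Ube2c held 1 and 6, Ccnb2 1 and 3, and Bub3 1 and 2. Bub3 has a second start farther downstream, whose window holds the same motifs. Among the 4, the CHR hexamer nearest the start began 43 bases before it in Bub3, 29 in Ube2c and 23 in Top2a, while in Ccnb2 it began 167 bases before it, upstream of all 3 CCAAT boxes.

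Each siRNA target was lowest in the libraries that name it. Values are CPM, counts per 1000000 of the library total, after scaling by the trimmed mean of M-values (TMM). Junb (chromosome 8, 84974484 to 84978718, on GRCm38) was at 29.97 and 31.1 CPM in siH1f0, 10.7 and 8.89 CPM in siJunb, against 39.1 and 35.7 CPM in siControl, a log2 change of -1.93 ± 0.092 (SE; adjusted p = 1.6e-05) for siJunb against siControl by edgeR's quasi-likelihood test. H1f0 (chromosome 15, 79028450 to 79030504) was at 51.6 and 54.4 CPM in siH1f0, 666 and 651 CPM in siJunb, against 798 and 742 CPM in siControl, a log2 change of -3.86 ± 0.059 (SE; adjusted p = 7.12e-09) for siH1f0 against siControl. Each target was also somewhat lower than in siControl in the other knockdown: H1f0 changed by -0.23 (adjusted p = 0.021) in siJunb, a call lost without any 1 siH1f0 or siJunb library and when siH1f0 was kept out of the fit, and Junb differed by -0.29 in siH1f0 (adjusted p = 0.0778; 0.0468 with DESeq2). Library totals ran from 48690447 to 85979630 counts. Of the fibroblast markers Col1a1, Col1a2 and Vim were abundant, Col3a1 and Postn were under 2 CPM, and Thy1 was at or near 0 in every library. In these bulk samples, fewer cycling cells and less RNA per cycling cell cannot be told apart.

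The mitosis and G2/M genes were well expressed. Their counts ran from 687 to 38331 in a library and their mean levels from 14.9 CPM for Cdc25c to 469 CPM for Top2a, with a median of 69.0 CPM, against 31.2 CPM for all genes tested. Per kilobase of gene length, which allows levels of different genes to be set side by side, Top2a was highest at 89.9 CPM per kb. Cdk1 (70.2), Ube2c (66.9), Racgap1 (66.8) and Prc1 (55.00) followed, and Cenpf (3.45), Cenpe (7.38) and Cdc25c (7.65) were lowest, all in CPM per kb. The median of 28.1 CPM per kb was above that of 75.8% of the genes tested. The genes lie on 16 chromosomes, with 8 on chromosome 2. Summed over the 40 genes, the level was 4258 and 4261 CPM in siH1f0, 3604 and 3660 CPM in siJunb, against 3897 and 4064 CPM in siControl. The siH1f0 libraries were the highest and the siJunb libraries the lowest, with siControl between them and no overlap.

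**Figure D1:**
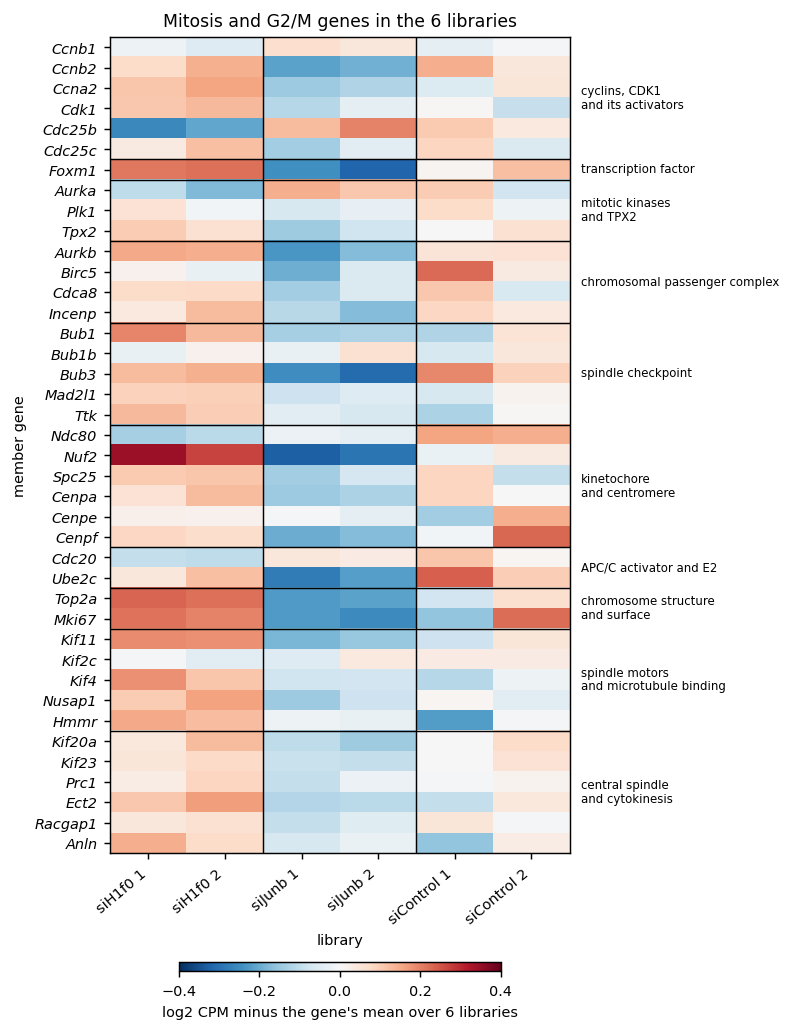
Level of each of the 40 genes in each library, as log2 CPM (TMM-scaled) minus the gene's own mean over the 6 libraries; rows are genes grouped by role and columns are libraries, with red above and blue below the mean. Most rows are red in both siH1f0 libraries and blue in both siJunb libraries; in 5 genes, Ccnb1, Cdc25b, Aurka, Ndc80 and Cdc20, both siH1f0 libraries lie below both siJunb libraries.

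With Junb knocked down, the mitotic genes that passed the test were all lower than in siControl, by modest amounts. They were the checkpoint protein gene Bub3, the E2 enzyme gene Ube2c, the transcription factor gene Foxm1, the kinetochore genes Nuf2, Cenpf and Ndc80, the cyclin gene Ccnb2, the chromosomal passenger genes Aurkb and Incenp, and the topoisomerase gene Top2a. The call rule was an adjusted p (Benjamini-Hochberg, over the 13427 genes, edgeR) under 0.05. By that rule 10 of the 40 genes (25.0%) were lower, against 7.82% of all genes tested, and 0 were higher, against 8.63%. DESeq2 likewise called 0 higher, and the 18 genes (45.0%) with an unadjusted p under 0.05, against 31.7% of all genes tested, were all lower. The median log2 change of the 40 genes was -0.11, against 0.002 for all genes tested, with a range of -0.42 to 0.11. In 24 of the 40 genes both siJunb libraries lay below both siControl libraries, against 28.4% of all genes tested. Without siJunb 1, and likewise without siJunb 2, only Bub3 of the 10 still passed, where 1.51% and 1.37% of all genes tested were called lower. With only the 4 libraries compared 6 passed, where 4.32% of all genes tested were called lower. Incenp, Ndc80, Cenpf and Top2a were lost in that fit and also without either siH1f0 library. The spread is pooled over groups, so every library bears on it. Without siControl 1 the members called lower came to 21, against 15.6% of all genes tested, and without siControl 2 to 21, against 18.1%, with 1 and 2 members higher, against 18% and 22.1%.

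With H1f0 knocked down, few of these genes differed from siControl by the test. Nuf2 and Top2a rose, and Cdc25b, a phosphatase gene that activates CDK1, and Ndc80, the partner of Nuf2 in the kinetochore, fell. That is 2 of 40 higher, against 2.27% of all genes tested, and 2 lower, against 4.27%. The median log2 change was 0.05, against 0.003 for all genes tested, with a range of -0.31 to 0.30, and 17 genes (42.5%) had an unadjusted p under 0.05, against 22.8% of all genes tested. These calls depend on single libraries. All were lost without any 1 siH1f0 or siJunb library, where fewer of all genes were called too. They were also lost with only the 4 libraries compared, where 0.487% of all genes tested were called higher and 1.95% lower. Without either siControl library more members were called, and more of all genes as well.

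The knockdowns stood farthest apart when set against each other. In siH1f0 against siJunb, 22 of the 40 genes (55.0%) were higher, against 12.2% of all genes tested, and 2 (5.0%), Cdc25b and Aurka, were lower, against 13.8%. The median log2 change was 0.19, against 0.0007 for all genes tested, with a range of -0.39 to 0.62. Both siH1f0 libraries lay above both siJunb libraries in 33 of the 40 genes, against 35.4% of all genes tested. The 3 comparisons share libraries and are not independent of one another. Without any 1 siH1f0 or siJunb library the members called higher came to 6 to 8, against 4.12% to 4.46% of all genes tested, and those called lower to 1. Cdc25b, Foxm1, Aurkb, Bub3, Nuf2, Top2a and Kif11 passed whichever of the 6 libraries was left out. Without siControl 1 or siControl 2 the counts were 31 and 4, against 22% and 22.4% of all genes called higher and 25% and 24.4% called lower.

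**Figure D2:**
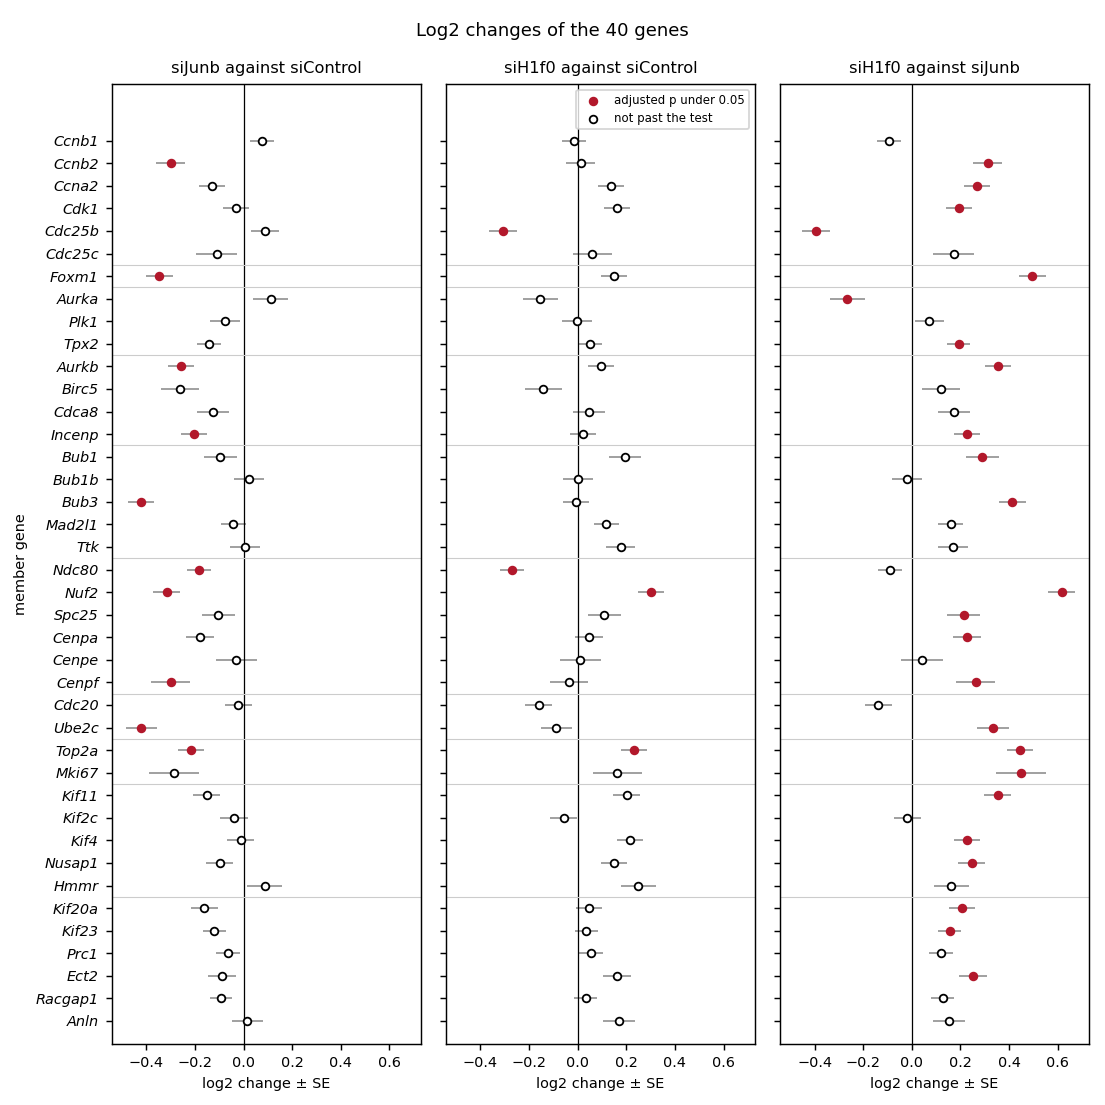
Log2 change ± SE (x axis, edgeR) of each of the 40 genes (y axis, grouped by role) in siJunb against siControl, siH1f0 against siControl and siH1f0 against siJunb; filled red points passed at adjusted p under 0.05 and open points did not. Filled points number 10, 4 and 24 in the 3 panels, and in the right panel 22 of them lie to the right of 0.

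Among the cyclins, CDK1 and its activators, Ccnb1 and Ccnb2 encode the B cyclins of the mitotic kinase. Ccnb2 (chromosome 9, 70407692 to 70421547, the third promoter shown) was at 51.97 and 54.4 CPM in siH1f0, 42.6 and 43.2 CPM in siJunb, against 54.6 and 50.9 CPM in siControl. Both siJunb libraries lay below the other 4, with log2 changes of -0.30 ± 0.059 (SE; adjusted p = 0.0112) against siControl and 0.31 ± 0.059 (SE; adjusted p = 0.00562) for siH1f0 against siJunb. Its close relative Ccnb1 did not follow: it was at 72.1 and 70.6 CPM in siH1f0, 76.8 and 75.5 CPM in siJunb, against 71.4 and 72.98 CPM in siControl, highest in siJunb, and it passed no comparison (log2 0.077, adjusted p = 0.322, for siJunb against siControl). Ccna2, the cyclin of S phase and G2, was at 148 and 153 CPM in siH1f0, 124 and 126 CPM in siJunb, against 132 and 142 CPM in siControl. Its siJunb libraries were the lowest and the siH1f0 libraries the highest, a log2 change of 0.27 ± 0.053 (SE; adjusted p = 0.00707) between the knockdowns, and the difference of siJunb from siControl missed the test (log2 -0.13, adjusted p = 0.127). Cdk1, the kinase itself (chromosome 10, 69335146 to 69352938), was at 216 and 219 CPM in siH1f0, 185 and 195 CPM in siJunb, against 201 and 188 CPM in siControl, with a log2 change of 0.19 ± 0.053 (SE; adjusted p = 0.0271) between the knockdowns. The CDC25 phosphatases remove inhibitory phosphates from CDK1. Cdc25b (chromosome 2, 131186949 to 131198497) was at 33.3 and 34.4 CPM in siH1f0, 43.4 and 45.6 CPM in siJunb, against 42.8 and 40.9 CPM in siControl, lower in both siH1f0 libraries than in the other 4. It fell by the test in siH1f0 against siControl, log2 -0.31 ± 0.059 (SE; adjusted p = 0.0202), and against siJunb, -0.39 ± 0.059 (SE; adjusted p = 0.00187). Cdc25c, the least abundant of the 40 at 13.5 to 16.1 CPM, passed no comparison.

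Foxm1 (chromosome 6, 128362967 to 128376146) encodes the forkhead factor that activates G2/M genes and was the only transcription factor among the 40. It was at 145 and 146 CPM in siH1f0, 106 and 101 CPM in siJunb, against 127 and 136 CPM in siControl. No group overlapped another: siH1f0 was highest, siControl lay between and siJunb was lowest. The group means were 146 ± 0.66 CPM in siH1f0, 103 ± 3.57 CPM in siJunb and 131 ± 6.95 CPM in siControl (SD, n = 2 each). Its log2 change was -0.35 ± 0.055 (SE; adjusted p = 0.00484) for siJunb against siControl and 0.50 ± 0.055 (SE; adjusted p = 0.000428) for siH1f0 against siJunb, while siH1f0 against siControl missed the test (log2 0.15, adjusted p = 0.149).

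Of the mitotic kinases outside the passenger complex and their activator Tpx2, Aurka and Tpx2 were called between the knockdowns, in opposite directions, and Plk1 was not. Plk1, the polo-like kinase of mitotic entry and spindle assembly, was at 40.3 and 38.3 CPM in siH1f0, 37.01 and 37.8 CPM in siJunb, against 40.6 and 38.1 CPM in siControl. Its groups were close and it passed no comparison. Aurka encodes the centrosomal Aurora kinase, and it was at 30.9 and 29.3 CPM in siH1f0, 36.6 and 35.7 CPM in siJunb, against 35.5 and 31.4 CPM in siControl. Its siH1f0 libraries were the lowest and its log2 change in siH1f0 against siJunb was -0.27 ± 0.073 (SE; adjusted p = 0.0275), a call lost when the libraries were scaled by total counts only (adjusted p = 0.0642). Tpx2, the spindle assembly factor that activates Aurora A, went the other way. It was at 216 and 210.2 CPM in siH1f0, 183 and 191 CPM in siJunb, against 201 and 210.3 CPM in siControl, with a log2 change of 0.19 ± 0.049 (SE; adjusted p = 0.0216) between the knockdowns.

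The chromosomal passenger complex corrects faulty attachments of chromosomes to the spindle and also acts in cytokinesis. Aurkb, its kinase (chromosome 11, 69045647 to 69051664), was at 52.4 and 52.1 CPM in siH1f0, 40.1 and 41.8 CPM in siJunb, against 48.8 and 49.00 CPM in siControl. Both siJunb libraries were lowest and both siH1f0 libraries highest, with log2 changes of -0.26 ± 0.053 (SE; adjusted p = 0.0137) for siJunb against siControl and 0.35 ± 0.053 (SE; adjusted p = 0.00188) for siH1f0 against siJunb. Incenp, the scaffold of the complex, was at 96.5 and 102 CPM in siH1f0, 86.9 and 83.2 CPM in siJunb, against 99.5 and 96.4 CPM in siControl, lowest in siJunb. It changed by -0.20 ± 0.054 (SE; adjusted p = 0.0357) in siJunb against siControl and by 0.23 ± 0.054 (SE; adjusted p = 0.0165) in siH1f0 against siJunb. Birc5, which encodes survivin, was at 45.8 and 44.3 CPM in siH1f0, 39.5 and 43.4 CPM in siJunb, against 52.9 and 46.4 CPM in siControl. Its siJunb libraries were lowest, but its log2 change against siControl lay just outside the threshold, -0.26 ± 0.077 (SE; adjusted p = 0.0501). It passed with DESeq2, with no count filter, with RLE scaling and with total counts (adjusted p = 0.00186 to 0.0492), and its log2 change was -0.16 without siControl 1. Cdca8, which encodes borealin, was at 65.2 to 77.4 CPM and passed no comparison.

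The spindle checkpoint delays anaphase until every kinetochore is attached. Bub3 (chromosome 7, 131560222 to 131571895, the first promoter shown) was at 107 and 108 CPM in siH1f0, 82.4 and 79.1 CPM in siJunb, against 112 and 104 CPM in siControl. The siJunb libraries stood apart below the other 4, while siH1f0 and siControl overlapped. The log2 change was -0.42 ± 0.054 (SE; adjusted p = 0.00198) for siJunb against siControl and 0.41 ± 0.054 (SE; adjusted p = 0.00101) for siH1f0 against siJunb, and the siH1f0 libraries differed from siControl by -0.0088 (adjusted p = 0.945). Bub1, a checkpoint kinase, was at 59.9 and 57.3 CPM in siH1f0, 47.7 and 48.1 CPM in siJunb, against 48.1 and 54.3 CPM in siControl. It was highest in siH1f0, with a log2 change of 0.29 ± 0.068 (SE; adjusted p = 0.0144) against siJunb, and siControl 1 lay close to siJunb. Mad2l1, which encodes the checkpoint protein MAD2, was at 77.2 to 87.4 CPM, had a log2 change of 0.16 between the knockdowns and just missed the test. Ttk, the MPS1 kinase gene, at 43.1 to 51.6 CPM, and Bub1b, the BUBR1 gene, passed no comparison. Bub1b was the flattest of the 5, between 52.7 and 57.4 CPM in all 6 libraries.

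**Figure D3:**
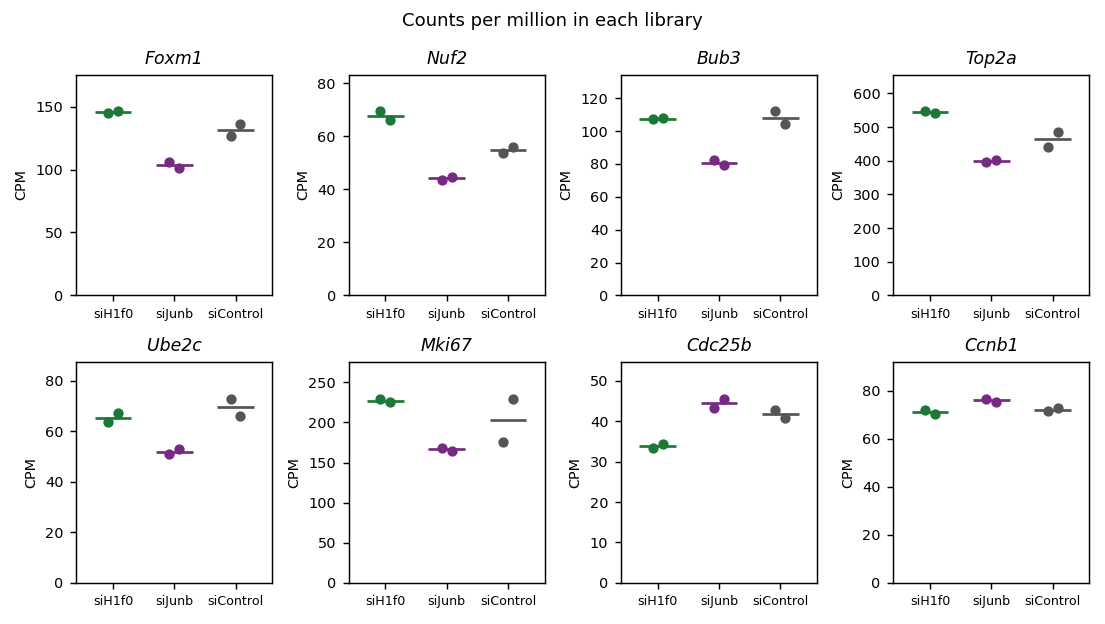
TMM-scaled CPM (y axis, from 0) of 8 genes in each library, with siH1f0, siJunb and siControl from left to right; points are libraries and lines are group means (n = 2). Foxm1, Nuf2, Bub3, Top2a and Ube2c are lowest in both siJunb libraries, Mki67 has siControl libraries far apart at 176 and 230 CPM, Cdc25b is lowest in siH1f0, and Ccnb1 is nearly level.

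The NDC80 complex, built from the products of Ndc80, Nuf2, Spc25 and the gene Spc24, couples kinetochores to microtubules. Nuf2 (chromosome 1, 169497934 to 169531464) was at 69.3 and 66.04 CPM in siH1f0, 43.6 and 44.7 CPM in siJunb, against 53.7 and 56.1 CPM in siControl, with no overlap between any groups. The group means were 67.7 ± 2.34 CPM in siH1f0, 44.1 ± 0.73 CPM in siJunb and 54.9 ± 1.66 CPM in siControl (SD, n = 2 each). The log2 change was -0.32 ± 0.055 (SE; adjusted p = 0.00748) for siJunb against siControl, 0.30 ± 0.055 (SE; adjusted p = 0.0157) for siH1f0 against siControl, and 0.62 ± 0.056 (SE; adjusted p = 0.00016) between the knockdowns, the last the widest positive change among the 40 genes. Ndc80, whose product pairs with that of Nuf2, had another order. It was at 61.7 and 62.7 CPM in siH1f0, 66.5 and 65.8 CPM in siJunb, against 75.4 and 74.7 CPM in siControl, lower in both knockdowns than in siControl, with a log2 change of -0.27 ± 0.049 (SE; adjusted p = 0.0155) for siH1f0 and -0.18 ± 0.049 (SE; adjusted p = 0.0373) for siJunb. Spc25 was at 64.4 and 64.7 CPM in siH1f0, 54.3 and 57.05 CPM in siJunb, against 63.5 and 56.1 CPM in siControl, with a log2 change of 0.21 ± 0.068 (SE; adjusted p = 0.0481) between the knockdowns. Both siH1f0 libraries lay above the other 4, and siJunb overlapped siControl.

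Cenpa and Cenpf were lower in siJunb than in siH1f0, and Cenpe did not pass. Cenpa, the histone H3 variant that marks centromeres, was at 48.2 and 50.6 CPM in siH1f0, 41.9 and 42.5 CPM in siJunb, against 49.2 and 46.4 CPM in siControl, and its log2 change between the knockdowns was 0.23 ± 0.058 (SE; adjusted p = 0.0204). Its siJunb libraries were the lowest, and the difference from siControl missed the test (log2 -0.18, adjusted p = 0.0644). Cenpf, a large kinetochore protein gene, was at 40.4 and 40.1 CPM in siH1f0, 33.3 and 33.8 CPM in siJunb, against 37.9 and 44.8 CPM in siControl. It passed in siJunb against siControl, -0.30 ± 0.079 (SE; adjusted p = 0.0352), and between the knockdowns, 0.26 ± 0.08 (SE; adjusted p = 0.0407). Its siControl libraries differed, and the change against siControl was -0.19 without siControl 2 and -0.42 without siControl 1. Cenpe, a kinetochore motor gene, ranged from 52.2 CPM in siControl 1 to 63.6 CPM in siControl 2 and passed no comparison.

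Of the pair that drives the APC/C, Ube2c and not Cdc20 was called. Ube2c (chromosome 2, 164769898 to 164778822, the second promoter shown), the E2 enzyme of the APC/C, was at 63.7 and 67.1 CPM in siH1f0, 50.8 and 52.99 CPM in siJunb, against 72.9 and 66.1 CPM in siControl. The siJunb libraries lay well below the rest, with a log2 change of -0.42 ± 0.064 (SE; adjusted p = 0.00418) against siControl and 0.33 ± 0.064 (SE; adjusted p = 0.00622) for siH1f0 against siJunb. Cdc20, the activator that brings substrates to the APC/C, was at 49.05 and 48.9 CPM in siH1f0, 54.1 and 53.6 CPM in siJunb, against 56.6 and 52.8 CPM in siControl. It differed by -0.022 in siJunb and by -0.16 in siH1f0, against siControl in each case, and passed no comparison.

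Top2a and Mki67 were among the genes with the widest change between the knockdowns. Top2a, topoisomerase II alpha, which untangles sister chromatids (chromosome 11, 98992943 to 99024189, the fourth promoter shown), was at 547 and 541 CPM in siH1f0, 397 and 401 CPM in siJunb, against 441 and 487 CPM in siControl. None of its groups overlapped, and the order was siH1f0, siControl, siJunb. The log2 change was -0.22 ± 0.054 (SE; adjusted p = 0.029) for siJunb against siControl, 0.23 ± 0.054 (SE; adjusted p = 0.0407) for siH1f0 against siControl, and 0.45 ± 0.054 (SE; adjusted p = 0.000675) between the knockdowns. Mki67, the Ki-67 proliferation marker that coats mitotic chromosomes (chromosome 7, 135689784 to 135716361), was at 229 and 225 CPM in siH1f0, 168 and 165 CPM in siJunb, against 176 and 229.7 CPM in siControl. Its siH1f0 and siJunb libraries were well apart, with a log2 change of 0.45 ± 0.1 (SE; adjusted p = 0.0133), but siControl 1 lay near siJunb and siControl 2 near siH1f0. The difference of siJunb from siControl missed the test (log2 -0.29, adjusted p = 0.0918), passed with DESeq2 (adjusted p = 0.0417), and came to -0.46 without siControl 1 and -0.09 without siControl 2.

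Among the spindle motors and microtubule binders, 3 of 5 (60.0%) were called higher in siH1f0 than in siJunb, against 12.2% of all genes tested. Kif11, the plus-end motor that pushes spindle poles apart, was at 139.7 and 139 CPM in siH1f0, 108 and 110.2 CPM in siJunb, against 116 and 127 CPM in siControl. Its groups did not overlap, and its log2 change between the knockdowns was 0.35 ± 0.056 (SE; adjusted p = 0.00233). Kif4, a chromokinesin gene, was at 95.5 and 90.9 CPM in siH1f0, 79.6 and 79.7 CPM in siJunb, against 77.7 and 82.9 CPM in siControl. It stood higher in siH1f0 than in the other groups, by 0.23 ± 0.055 (SE; adjusted p = 0.0171) against siJunb, while siH1f0 against siControl just missed the test (log2 0.22, adjusted p = 0.0527; 0.0244 with DESeq2). Nusap1, which bundles spindle microtubules, was at 57.95 and 60.3 CPM in siH1f0, 48.8 and 50.9 CPM in siJunb, against 54.3 and 52.4 CPM in siControl, a log2 change of 0.25 ± 0.055 (SE; adjusted p = 0.0124). The siH1f0 libraries were above both other groups. Kif2c, the depolymerising kinesin MCAK, was level between 42.2 and 45.0 CPM, and Hmmr, a spindle protein and hyaluronan receptor gene, was at 59.9 to 77.9 CPM and passed no comparison.

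The genes of the central spindle and cytokinesis were also higher in siH1f0 than in siJunb in each of the 6. Of those differences 3 (50.0%) passed the test, against 12.2% of all genes tested. Kif20a, the mitotic kinesin MKLP2, was at 83.9 and 88.9 CPM in siH1f0, 75.9 and 73.9 CPM in siJunb, against 81.7 and 85.8 CPM in siControl, a log2 change of 0.21 ± 0.055 (SE; adjusted p = 0.025) between the knockdowns. Kif23, MKLP1 of the centralspindlin complex, was at 134 and 137 CPM in siH1f0, 122 and 121 CPM in siJunb, against 129 and 135 CPM in siControl, a log2 change of 0.16 ± 0.048 (SE; adjusted p = 0.0427), the smallest among the genes called in that comparison. For both genes siJunb was lowest and siH1f0 overlapped siControl. Ect2, the exchange factor that activates RhoA at the cell equator, was at 120.4 and 125 CPM in siH1f0, 103 and 104 CPM in siJunb, against 105 and 115 CPM in siControl, a log2 change of 0.25 ± 0.058 (SE; adjusted p = 0.0143). The siH1f0 libraries were above the rest. Prc1 (155 to 176 CPM), which bundles central spindle microtubules, Racgap1 (191 to 213 CPM), the partner of MKLP1, and Anln (239.7 to 296 CPM), the anillin gene of the cleavage furrow, had log2 changes of 0.12, 0.13 and 0.15 between the knockdowns and did not pass. In siJunb against siControl 0 of the 6 were called by edgeR, where 8.63% of all genes tested were called higher and 7.82% lower. An unadjusted p under 0.05 was found for 2 of the 6 (33.3%), against 31.7% of all genes tested.

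The libraries of a group did not agree equally well. Over the 40 genes the median absolute log2 ratio of library 1 to library 2 was 0.040 in siH1f0, 0.036 in siJunb and 0.101 in siControl, against 0.059, 0.058 and 0.132 over all genes tested. The widest gap was 0.38 for Mki67 in siControl, against at most 0.09 in siH1f0 (Incenp) and 0.14 in siJunb (Birc5). In siControl that ratio ran with gene length, with Spearman rho of -0.79 over the 40 genes and -0.52 over all genes, while within the 40 genes rho was 0.32 in siH1f0 and 0.23 in siJunb. Longer members were thus lower in siControl 1 than in siControl 2, as in Mki67, Cenpf and Cenpe. Between the knockdowns, where the siControl libraries enter only the pooled spread, rho of the log2 change with length was 0.13 over the 40 genes, and it was 0.08 in siJunb against siControl and 0.36 in siH1f0 against siControl. These correlations are across genes that share libraries and are given as descriptions. The part of the siControl difference in the siControl comparisons was not tested.

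**Figure D4:**
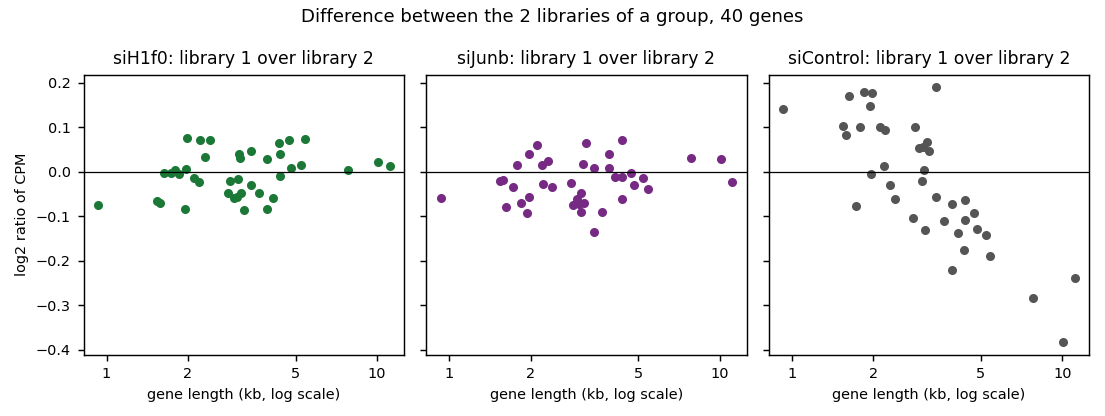
Log2 ratio of library 1 to library 2 (y axis, TMM-scaled CPM) against gene length in kb (x axis, log scale) for the 40 genes in siH1f0, siJunb and siControl; each point is a gene. In siControl the ratio falls with length (rho -0.79), to below -0.3 at Mki67, while the other panels scatter near 0.

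Other genes of the same processes were examined as lists, also chosen with earlier results of these data known. Their counts and medians stand beside those of all genes tested. The median log2 change of all genes tested was 0.002 in siJunb against siControl, 0.003 in siH1f0 against siControl and 0.0007 in siH1f0 against siJunb. Of all genes tested, 8.63% were called higher and 7.82% lower in siJunb against siControl, 2.27% and 4.27% in siH1f0 against siControl, and 12.2% and 13.8% in siH1f0 against siJunb. Of 62 further mitotic genes, 17 (27.4%) were called in siJunb against siControl, all lower, with a median log2 change of -0.16. Examples were Pbk, a mitotic kinase gene, at -0.63 (adjusted p = 0.000294), Cenpm, of the inner kinetochore, at -0.65 (adjusted p = 0.0012), Melk, a kinase gene, at -0.49 (adjusted p = 0.00309), and Spag5, which encodes the spindle protein astrin, at -0.27 (adjusted p = 0.0104). In siH1f0 against siJunb 38 of the 62 (61.3%) were higher and 2 (3.23%) lower, with a median of 0.26. Pbk (0.81 (adjusted p = 3.71e-05)), Nsl1 of the MIS12 complex (0.74 (adjusted p = 8.42e-05)), Spag5 (0.54 (adjusted p = 0.000205)) and Spc24 (0.82 (adjusted p = 0.000268)), the remaining NDC80 complex gene, led. In siH1f0 against siControl 8 (12.9%) were higher and 2 (3.23%) lower, with a median of 0.11. There Nsl1 (0.47 (adjusted p = 0.00247)), Cenpn (0.35 (adjusted p = 0.0093)), a centromere protein gene, and Kntc1 (0.43 (adjusted p = 0.0114)), of the checkpoint RZZ complex, rose, and Psrc1 (-1.16 (adjusted p = 0.000403)), a microtubule regulator gene, fell.

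Condensin and cohesin shape and hold chromatids. Of 17 genes, 5 (29.4%) were higher in siH1f0 than in siJunb, against 12.2% of all genes tested (median 0.13), among them Ncapd2 (0.58 (adjusted p = 0.0002)), Smc4 (0.31 (adjusted p = 0.00528)) and Ncaph (0.22 (adjusted p = 0.0118)) of condensin and Rad21 (0.19 (adjusted p = 0.0257)) of cohesin. Against siControl only Ncapd2 passed in siJunb, 5.88% of the list against 7.82% of all genes (-0.44 (adjusted p = 0.00181); list median -0.06), and 0 passed in siH1f0 by edgeR, with 6 at an unadjusted p under 0.05 (median 0.10). Of 17 APC/C subunit and regulator genes, 4 (23.5%) were lower in siJunb than in siControl, against 7.82% of all genes tested (median -0.03), namely the inhibitor gene Fbxo5, EMI1, at -0.32 (adjusted p = 0.00841), and the subunit genes Anapc4 at -0.27 (adjusted p = 0.0102), Anapc5 at -0.23 (adjusted p = 0.0148) and Anapc7 at -0.20 (adjusted p = 0.0285). Fbxo5 was also lower in siH1f0 than in siControl (-0.24 (adjusted p = 0.0437)), the only call of that list there (median 0.03). That is 5.88% of the list, against 4.27% of all genes called lower. The Fbxo5 call was lost with total counts only, with only the 4 libraries compared and with the replicate block (adjusted p = 0.0586 to 0.122). Between the knockdowns 4 (23.5%) were higher and 1 (5.88%) lower, against 12.2% and 13.8% of all genes (median 0.06), with Anapc5 at 0.30 (adjusted p = 0.0022), Anapc7 at 0.23 (adjusted p = 0.0107), Anapc16 at 0.22 (adjusted p = 0.0184) and Cdc16 at -0.20 (adjusted p = 0.016).

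Of 8 genes that hold CDK1 in check or release it, 2 were higher (25.0%, against 2.27% of all genes) and 1 lower (12.5%, against 4.27%) in siH1f0 than in siControl. Between the knockdowns 4 were higher (50.0%, against 12.2%) and 1 lower (12.5%, against 13.8%), and in siJunb against siControl 1 was higher and 1 lower (12.5% each, against 8.63% and 7.82%). Cdkn1a, the p21 gene, was lower in siH1f0 than in siControl at -0.49 (adjusted p = 0.000969) and than in siJunb at -0.57 (adjusted p = 0.000135). Wee1, which phosphorylates and inhibits CDK1, was higher at 0.39 (adjusted p = 0.0109) and 0.46 (adjusted p = 0.0015). The checkpoint kinase gene Chek1 was higher in siH1f0 than in siControl (0.22 (adjusted p = 0.0343)), and Pkmyt1 (0.28 (adjusted p = 0.0196)) and Chek2 (0.21 (adjusted p = 0.0397)) were higher in siH1f0 than in siJunb. In siJunb against siControl Gadd45a, a stress-induced gene, fell (-0.33 (adjusted p = 0.0106)) and Cdc25a, a CDC25 phosphatase gene, rose (0.18 (adjusted p = 0.0387)). The Cdc25a call was lost with total counts only, no count filter, only the 4 libraries compared and the replicate block (adjusted p = 0.0554 to 0.114). The medians of the 8 were 0.13 for siH1f0 against siControl, 0.18 for siH1f0 against siJunb and -0.08 for siJunb against siControl. Of 17 DREAM, MuvB and NF-Y genes, 1 (5.88%) was called in siJunb against siControl, a share below the 7.82% of all genes called lower: Nfyb, an NF-Y subunit gene, at -0.54 (adjusted p = 0.00116) (list median -0.01). In siH1f0 against siControl the MuvB gene Lin9 was higher at 0.29 (adjusted p = 0.0361) (median 0.08). It was the only call of that list there (5.88%, against 2.27% of all genes called higher). Between the knockdowns 4 (23.5%) were higher and 1 (5.88%) lower, against 12.2% and 13.8% of all genes (median 0.12), the higher ones being Nfyb (0.44 (adjusted p = 0.00126)), Lin9 (0.40 (adjusted p = 0.00317)), Mybl2, the B-MYB gene (0.28 (adjusted p = 0.00472)), and Rbl1, the p107 gene (0.35 (adjusted p = 0.00897)).

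Genes of S phase and DNA replication were called mostly between the knockdowns. Of 45 such genes, 22 (48.9%) were higher and 1 (2.22%) lower in siH1f0 than in siJunb, against 12.2% and 13.8% of all genes tested (median 0.16), led by Cdc6 (0.43 (adjusted p = 0.000573)), a licensing factor gene, Tk1 (0.45 (adjusted p = 0.000578)), thymidine kinase, Pole (0.53 (adjusted p = 0.00175)), a replicative polymerase gene, and Ccne2 (0.62 (adjusted p = 0.00191)), cyclin E2. In siH1f0 against siControl 7 (15.6%) were called, all higher, against 2.27% of all genes (median 0.11), with Cdc6 at 0.32 (adjusted p = 0.00835), Tk1 at 0.29 (adjusted p = 0.0165), Rrm1 of ribonucleotide reductase at 0.23 (adjusted p = 0.0228) and Pole at 0.37 (adjusted p = 0.0272), or 0.25 without siControl 1. In siJunb against siControl 3 (6.67%) were called, all lower, a share no higher than the 7.82% of all genes (median -0.06): Ccne2 (-0.48 (adjusted p = 0.011)), Gins3 of the replicative helicase (-0.24 (adjusted p = 0.0374)) and E2f1, an S phase transcription factor gene (-0.19 (adjusted p = 0.0394)). Of the genes of these lists named with a p-value, 4 of 15 passed without each library in turn in siJunb against siControl, 2 of 13 in siH1f0 against siControl, and 13 of 24 in siH1f0 against siJunb.

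**Figure D5:**
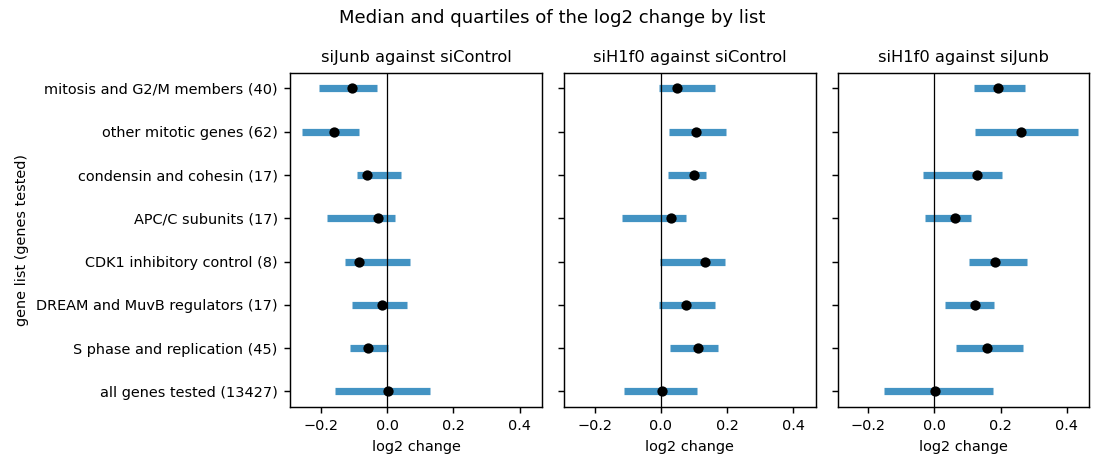
Median (point) and quartiles (bar) of the log2 change (x axis) over the tested genes of each list (y axis, number of genes in brackets) in the 3 comparisons. The 40 genes have medians of -0.11, 0.05 and 0.19, the 62 other mitotic genes -0.16, 0.11 and 0.26, and all genes tested lie at about 0.

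Markers of cell types moved with the groups in part. Of 6 cardiomyocyte markers tested of 7, 3 (50.0%) were lower in siJunb than in siControl, against 7.82% of all genes tested. These were Actc1 at -2.43 (adjusted p = 7.86e-06), Myl7 at -1.63 (adjusted p = 9.28e-05) and Tnni3 at -0.92 (adjusted p = 0.00275). Tnnt2, by far the most abundant of the list, was not called there. It was at 102 and 108 CPM in siH1f0, 99.8 and 102 CPM in siJunb, against 105 and 94.2 CPM in siControl. In siH1f0 against siJunb 5 (83.3%) were higher, against 12.2% of all genes tested. They were led by Actc1 at 2.30 (adjusted p = 4.42e-06), Myl7 at 1.77 (adjusted p = 2.39e-05), Tnni3 at 1.60 (adjusted p = 7.89e-05) and Myh6 at 0.69 (adjusted p = 0.00266). Tnni3 was also higher in siH1f0 than in siControl (0.68 (adjusted p = 0.0114)), the only marker of the list called there (16.7%, against 2.27% of all genes tested). Their summed level was 159 and 167 CPM in siH1f0, 120.5 and 121 CPM in siJunb, against 161 and 143 CPM in siControl. Ryr2 was at or near 0. Summed over 9 fibroblast markers, the level was 4699 and 4614 CPM in siH1f0, 4889 and 4904 CPM in siJunb, against 4942 and 4751 CPM in siControl, and the groups overlapped in part. The proteoglycan gene Dcn was higher than in siControl in both siH1f0 (0.65 (adjusted p = 0.0114)) and siJunb (1.68 (adjusted p = 9.28e-05)). Pdgfra was higher in siJunb (0.27 (adjusted p = 0.0442); 0.16 without siControl 1) and Col1a2 in siH1f0 (0.34 (adjusted p = 0.00292)). In siH1f0 against siJunb Col1a2 was higher (0.40 (adjusted p = 0.000395)) and 4 others were lower, 50.0% of the 8 tested against 13.8% of all genes. Among the 4 were Dcn (-1.03 (adjusted p = 0.000298)), Pdgfra (-0.31 (adjusted p = 0.0172)) and Pdgfrb (-0.20 (adjusted p = 0.0222)). The macrophage and leukocyte markers summed to 2.46 to 3.53 CPM, with Ptprc and Tyrobp at 0 in every library. Csf1r stayed under 1 CPM, higher in siJunb than in siControl (1.39 (adjusted p = 0.0276)) and lower in siH1f0 than in siJunb (-1.47 (adjusted p = 0.0176)), and Lyz2 differed between the knockdowns (0.78 (adjusted p = 0.0382); 0.51 without siH1f0 2). The endothelial markers summed to at most 0.199 CPM, the epithelial ones to at most 0.033 CPM, and the skeletal muscle ones to at most 0.658 CPM. The part of the cell state in the levels of the mitotic genes was not tested.

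The strand setting of the counting is not given in the sources used here. Some of the genes overlap others. In the GENCODE vM21 annotation Kif20a shares 31.8% of its exon bases with Cdc23 on the opposite strand, Ube2c 22.8% with Tnnc2, Prc1 21.8% with Rccd1, Kif4 15.1% with Pdzd11 and Ccna2 10.4% with Exosc9. Reads in the shared part cannot be assigned to a strand here. Cdc23 itself was counted at 93.1 CPM, above the level of Kif20a, Pdzd11 at 49.98 CPM, Exosc9 at 27.1 CPM, Rccd1 at 9.97 CPM and Tnnc2 at 0.528 CPM. None of these partners passed in siJunb against siControl or in siH1f0 against siJunb. Plk1, Nusap1, Foxm1, Cdc20 and Cdc25b share at most 7.09% of their exon bases with any other gene. Of their partners, Oip5 (beside Nusap1) had a log2 change of 0.41 (adjusted p = 0.00309) and Elovl1 (beside Cdc20) of -0.56 (adjusted p = 0.000505) in siH1f0 against siJunb. Elovl1 also differed from siControl in siJunb (0.23, adjusted p = 0.0423) and in siH1f0 (-0.33, adjusted p = 0.0207). Spef1, on the opposite strand which covers 2.93% of the exon bases of Cdc25b, was lower in siH1f0 than in siControl (-0.49, adjusted p = 0.0485), as Cdc25b was.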

How the data were processed

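The 6 poly(A) RNA-seq libraries came from 1 line of mouse embryonic fibroblasts, 2 each for siH1f0, siJunb and siControl, described by the labels as biological replicates. The authors deposited a table of raw counts, 1 row per gene symbol, not normalised, with gene lengths, made with HISAT2, Subread, featureCounts and the build mm10, per the submitters' processing notes. No source used here gives tool versions, the gene annotation, the strand setting or the rule for multi-mapping reads.

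Tests on the deposited counts used edgeR 4.0.16 (R 4.3.3, limma 3.58.1), with TMM scaling (factors 0.979 to 1.02), the filterByExpr filter, and the quasi-likelihood F test on all 6 libraries, group being the sole term (3 residual degrees of freedom). P-values were adjusted by Benjamini-Hochberg over 13427 genes, and a gene was called under 0.05. P-values measure only the spread between these libraries, and an exact permutation of 2 against 2 libraries cannot go below p = 0.333 (two-sided). The median count of a tested gene was 1484 to 2682 per library. CPM are counts per 1000000 of the TMM-scaled library total, and errors are given as SD or SE.

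The 40 genes and the other lists were chosen with earlier results of these data known. Values per library are given for each member called in any comparison and for Ccnb1, Cdk1, Plk1, Aurkb, Top2a, Mki67 and Foxm1. From each other list, up to 4 called genes with the smallest p per comparison are named. Sgo1 and Sgo2a were found under their older symbols. Coordinates come from GENCODE vM21 (GRCm38) and promoter windows from RefSeq (GRCm38.p6). Results were recomputed with DESeq2 1.42.0, RLE size factors, scaling by totals, no filter, a fit of the 4 libraries of a comparison, a replicate block, and without each library. The fit was run on simulated counts whose added changes were larger than those of the 40 genes, without the siControl trend with length. That run does not bear on changes as small as theirs.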

Additional observations from a re-analysis of the deposited data

How the results depend on the processing

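No called gene named in the text changed direction under any alternative run. With only the 4 libraries compared, 1094 genes were called in siJunb against siControl, 6 of the 40 lower, against 2209 and 10 with all 6 libraries. In siH1f0 against siControl the counts were then 325 genes, with 0 of the 40 higher and 0 lower, against 879, 2 and 2. In siH1f0 against siJunb they were 6416 genes, with 31 of the 40 higher and 4 lower, against 3484, 22 and 2. Of all genes tested, 23.3% were then called higher and 25.3% lower in siH1f0 against siJunb, against 12.2% and 13.8% with all 6 libraries. In siH1f0 against siControl members called higher numbered 4 with total counts only, against 3.03% of all genes tested. They numbered 5 with DESeq2, against 3.36%, and 6 with no count filter, against 4.83%, where 1921 genes were called in all. Total counts only left 1 member lower in siH1f0 against siJunb, and moved the split of all calls to 884 higher and 1369 lower in siJunb against siControl (TMM 1159 and 1050) and to 2222 higher and 1340 lower in siH1f0 against siJunb (TMM 1637 and 1847), with a shift of the median of all genes of at most 0.05.

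Leaving out each library in turn gave 352 to 5521 genes in siJunb against siControl, with 0 to 2 members higher and 1 to 21 lower. In siH1f0 against siControl it gave 116 to 4932 genes, with 0 to 15 members higher and 0 to 6 lower, and in siH1f0 against siJunb 1304 to 6435 genes, with 6 to 31 members higher and 1 to 4 lower. A lone library is then assumed to vary like the other groups. In each comparison the lowest count of all genes came without a knockdown library and the highest without a siControl library. The members called were likewise fewer without any 1 knockdown library than without either siControl library. Their ranges thus moved with the share of all genes called. The median log2 change of the 40 genes stayed between -0.14 and -0.084 in siJunb against siControl, 0.028 and 0.080 in siH1f0 against siControl, and 0.17 and 0.21 in siH1f0 against siJunb, where total counts only gave 0.24.

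The labels do not say whether equal replicate numbers mark a shared culture or day, and these 6 libraries cannot settle it. The deviations of replicate 1 from the group mean correlated across genes at 0.033 between siH1f0 and siJunb, 0.023 between siJunb and siControl, and -0.16 between siH1f0 and siControl. With the replicate block 550 genes were called in siH1f0 against siControl, with 1 member higher (Top2a was no longer called), against 1.11% of all genes tested. The members called fell to 8 lower in siJunb against siControl, where 6.08% of all genes tested were called lower. They fell to 19 higher in siH1f0 against siJunb, where 10.2% of all genes tested were called higher. With all 6 libraries and no block these shares were, in the same order, 2.27%, 7.82% and 12.2%. With the siControl numbers crossed, an alternative chosen after seeing the data, 938 genes, 3 members higher and 2 lower were called in siH1f0 against siControl. Of all genes tested 2.51% were called higher and 4.48% lower in that run. At the deposited depth every member had at least 687 counts in each library, and the cause of the changes between alternatives was not tested.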
